A study of Mus musculus with 12 samples.

Results

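Hair follicle stem cells (HFSCs) of aged mice were compared 3 days after the hair had been plucked and without plucking, with 1 microarray in each state. The comparison takes 2 of the 12 samples of the series and covers the 24423 of 34742 gene names that were well above background on at least 1 of both arrays. Both samples came from wild-type C57BL/6 mice of at least 22 months, for which the labels name no tamoxifen. The cells were collected by flow cytometry as high for CD34, high for ITGA6 (integrin alpha 6) and negative for SCA1, and nanogram amounts of RNA were amplified before labelling. The other 3 pairs of plucked and unplucked HFSCs came from young wild-type C57BL/6 mice (8 weeks), from wild-type C57BL/6 mice injected with tamoxifen (control, 12 weeks) and from tamoxifen-injected Col17a1 cKO mice (12 weeks, strain not given). Tamoxifen was given as 2 mg per mouse for 5 days. The knockout is labelled with the K14 promoter, which is active in basal keratinocytes of skin and not in HFSCs alone. How many mice gave cells to a sample, and whether plucked and unplucked cells came from the same mouse, is not given in the labels.

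The bulge is the part of the follicle in which HFSCs rest between hair cycles, next to the old club hair and above the hair germ. Bone morphogenetic proteins (BMPs) and FGF18 hold these cells quiescent, and Wnt and hedgehog signals accompany the start of a new growth phase. Plucking pulls out the shaft and starts that phase, in which the germ divides before the bulge does. COL17A1, a transmembrane collagen of the hemidesmosome, anchors basal cells to the basement membrane.

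Among the 25 gene lists compared below, mitosis and DNA replication had the highest median differences in aged HFSCs. Promoters of both kinds carry short motifs of cell cycle genes. Windows of 4 such genes are printed for that reason, from RefSeq on GRCm38.p6, each running 5′ to 3′ on the strand of the gene from 250 bases before to 50 bases after its start. Capitals mark the CCAAT box (CCAAT), the CHR of late cell cycle genes (TTTGAA or TTCGAA) and the E2F site (TTTGGCGC, TTTCGCGC, TTTCCCGC or TTTGCCGC), searched on both strands. Ccnb2 lies at chr9:70421505-70421804 on the minus strand, Kif11 at chr19:37376132-37376431 on the plus strand, Orc1 at chr4:108579204-108579503 on the plus strand and Mcm3 at chr1:20820263-20820562 on the minus strand.
Ccnb2: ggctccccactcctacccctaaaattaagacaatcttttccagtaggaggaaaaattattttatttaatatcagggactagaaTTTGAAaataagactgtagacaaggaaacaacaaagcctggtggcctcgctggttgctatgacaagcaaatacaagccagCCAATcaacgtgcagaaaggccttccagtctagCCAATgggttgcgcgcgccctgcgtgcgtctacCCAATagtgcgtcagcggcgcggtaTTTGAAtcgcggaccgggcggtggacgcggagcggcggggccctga
Kif11: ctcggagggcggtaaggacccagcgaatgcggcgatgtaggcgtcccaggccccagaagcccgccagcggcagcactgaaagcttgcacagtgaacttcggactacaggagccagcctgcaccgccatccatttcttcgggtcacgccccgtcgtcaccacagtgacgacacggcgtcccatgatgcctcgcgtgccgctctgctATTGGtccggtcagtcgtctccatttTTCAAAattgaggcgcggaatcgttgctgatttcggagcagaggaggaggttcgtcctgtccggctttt
Orc1: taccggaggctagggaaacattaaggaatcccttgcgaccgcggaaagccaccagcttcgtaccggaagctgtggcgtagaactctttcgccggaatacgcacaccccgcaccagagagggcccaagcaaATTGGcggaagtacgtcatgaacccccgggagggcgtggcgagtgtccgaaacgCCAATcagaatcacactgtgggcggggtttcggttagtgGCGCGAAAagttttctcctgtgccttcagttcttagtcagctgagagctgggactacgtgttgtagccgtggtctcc
Mcm3: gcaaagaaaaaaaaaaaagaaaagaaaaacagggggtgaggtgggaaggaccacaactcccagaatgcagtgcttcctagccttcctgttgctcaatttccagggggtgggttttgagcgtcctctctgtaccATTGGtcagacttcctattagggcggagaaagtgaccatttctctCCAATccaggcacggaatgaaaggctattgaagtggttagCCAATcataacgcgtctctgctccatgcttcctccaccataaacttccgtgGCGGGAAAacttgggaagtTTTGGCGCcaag
In Ccnb2 and Kif11 a CHR stands near the start, at position 5 and at position -19, with a CCAAT box upstream of it, and Orc1 and Mcm3 hold E2F sites and no CHR, at -27 in Orc1 and at 20 and 39 in Mcm3. Among the 33 mitosis genes with a window, 75.8% held a CHR, 72.7% a CCAAT box and 66.7% both. Over the 11833 windows of genes measured in the aged pair, these shares were 14.8%, 38.3% and 6.3%, and over all 27025 windows they were 19.4%, 37.9% and 7.7%. A CCAAT box stood in 65.2% of 23 DNA replication windows and in 60.9% of 23 homologous recombination windows, close to its share in mitosis. An E2F site stood in 39.1% of the DNA replication windows and 6.1% of the mitosis windows, in 3.6% of the measured and in 2.3% of all windows. Over the 2021 windows of all genes at least 2-fold higher in plucked aged HFSCs, the shares lay much nearer those of the measured genes. There 17.3% held a CHR, 42.5% a CCAAT box, 8.2% both and 5.4% an E2F site. The motifs thus mark the chosen lists and not the higher genes at large. These are matches of letters, and binding was not measured.

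Levels below are log2 processed intensities relative to the 75th percentile of the array, so that 0 is that percentile, and a difference is plucked minus unplucked. With 1 array on a side no test of the plucking response was possible, and "higher" and "lower" mean a log2 difference of 1 or more, which is 2-fold. Where a probe was well above background on 1 array alone, the fold is a lower bound against the detection floor of the dim array, or against the dim probe's own level where that was higher. Counts of higher and lower genes take a dim probe at its measured level, and the text gives the count at the bounds where it differs. The share of spots called well above background was 59.18% for the plucked and 61.45% for the unplucked aged array, against 49.71% to 64.23% on the other 6 HFSC arrays. The median SD over repeated spots of a probe was 0.0872 on the plucked and 0.0977 on the unplucked aged array, which covers spotting and not cells or mice. The aged arrays lay side by side on slide 1, the unplucked in column 1 and the plucked in column 2, so plucking and slide column cannot be told apart in them. The young arrays were on slide 1 in the same columns. The control and cKO arrays were on slide 2, with the plucked array of each pair in the lower column. Between the aged pair and those pairs, slide and mouse type cannot be told apart. The number of arrays limits the precision.

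The sorted identity was checked on 8 transcripts of the HFSC sort and bulge, and all 8 were well above background on both aged arrays. Cd34 stood at 3.93 in plucked and 5.62 in unplucked aged HFSCs, against 0.76 in aged total epidermis and below background in aged interfollicular epidermis (IFE). Lgr5, Lhx2, Tbx1, Sox9 and Nfatc1 were likewise lower in aged IFE than on both aged HFSC arrays. Itga6 and Krt15 were not, so these do not tell HFSCs from IFE. Itga6 stood at 4.25 in plucked and 4.48 in unplucked aged HFSCs, against 5.77 in aged IFE. Krt15 stood at 5.93 and 6.18, against 6.14 in aged IFE. Lgr5 stood at 4.22 in plucked and 4.60 in unplucked aged HFSCs, and Ly6a, the gene of SCA1, at -1.42 and -1.77. Of the markers of other cells, Ly6g, S100a8 and Mpo of neutrophils, Cd207, Lyz2 and Tyrobp of Langerhans and myeloid cells, Pecam1 and Cdh5 of endothelium, and Dcn, Lum and Pdgfra of fibroblasts were not well above background on either array. Other members of these lists were detected on at least 1 aged array, 4 of 9 for neutrophils, 8 of 12 for myeloid cells, 3 of 7 for endothelium and 4 of 8 for fibroblasts. The summed linear levels of the 10 markers of interfollicular epidermis and upper follicle came to 87.4 in plucked and 48.1 in unplucked aged HFSCs, against 102 in aged IFE, with all 10 detected on both arrays. The sums were 7.80 in plucked and 5.17 in unplucked cells for 9 sebocyte markers, 25.4 and 24.6 for 8 fibroblast markers, and 2.46 and 3.36 for 7 T cell markers. The fibroblast sum was 1.19 in aged total epidermis and 0.673 in aged IFE. They were 141 in plucked and 187 in unplucked cells for 9 neutrophil markers, nearly all of it from Csf3r. Of the 4 neutrophil markers detected on an aged array, S100a9, Cxcr2 and Camp were higher in plucked cells and none was lower. The sums were 203 in plucked and 205 in unplucked cells for 12 myeloid markers, mostly from Itgam, 1.82 and 4.13 for 8 melanocyte markers, and 2.01 and 0.968 for 8 erythroid and muscle markers. In such bulk samples fewer cells of a type and less RNA per cell cannot be told apart.

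In plucked aged HFSCs 3824 genes (15.7%) were at least 2-fold higher and 4115 genes (16.8%) were at least 2-fold lower than in unplucked aged HFSCs, and the median difference over the 24423 genes was -0.07. Of the higher genes, 2551 were well above background on both arrays, and of the lower genes, 2335. The remaining 1273 higher and 1780 lower genes were above background on 1 array, and 806 and 1139 of them differed by 2-fold also at their bound. With normexp background correction and quantile normalization these counts were 1740 higher and 1689 lower genes. At least 16-fold differences on both arrays were found for 38 higher and 27 lower genes. Probes of a gene did not always agree: for 170 (2.9%) of 5806 genes with several probes well above background on both arrays, a probe was at least 2-fold higher while another was at least 2-fold lower, and the median SD over the probes of a gene was 0.47. Counts of higher and lower members in the lists below stand against these shares of all genes, 15.7% and 16.8%. In the plot of list members, the lists of cell division stood furthest right and the BMP list furthest left.

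**Figure D1:**
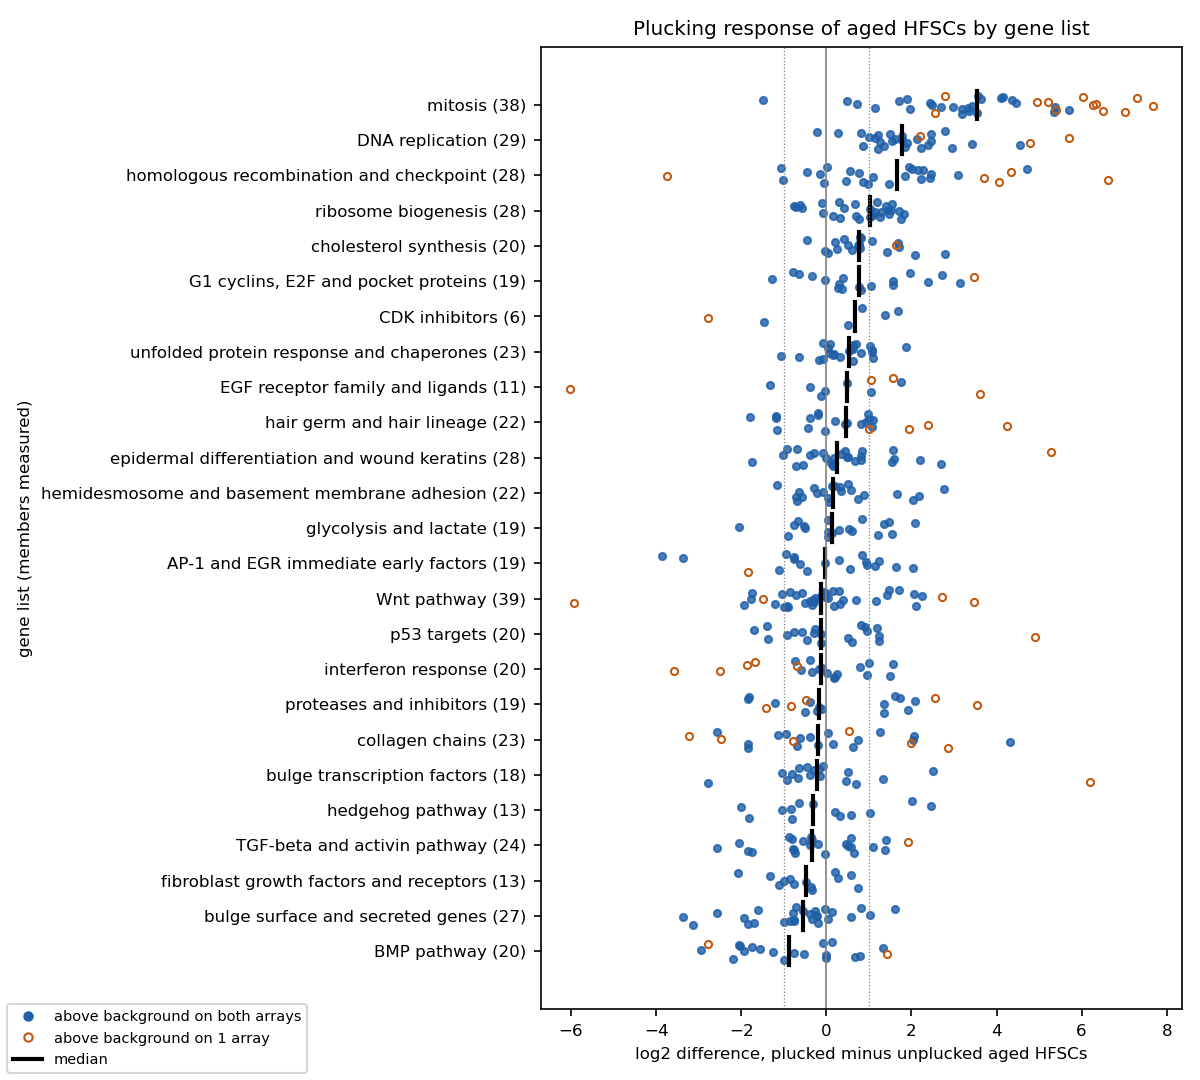
Log2 difference (plucked minus unplucked aged HFSCs, x axis) of each measured member of 25 gene lists (y axis, number measured in brackets), with filled points for genes well above background on both arrays, open points for genes above it on 1 array, and a bar at the list's median. Mitosis has a median of 3.54 and the BMP pathway a median of -0.88, against -0.07 over all genes; dotted lines mark 2-fold.

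Mitosis genes showed the largest shift of the 25 lists: 35 of 38 measured members were higher in plucked aged HFSCs, 1 was lower, and the median difference was 3.54. At the bounds 34 were higher and the median was 3.48. The mitosis list had medians of 4.59 in young, 4.27 in control and 2.74 in cKO HFSCs. Mki67, whose protein marks cycling cells, stood at 4.19 in plucked and -0.28 in unplucked aged HFSCs, a 22.2-fold difference. In the other pairs Mki67 stood at 5.10 in plucked and 0.45 in unplucked young HFSCs, at 5.41 and 2.15 in control HFSCs and at 5.26 and 2.39 in cKO HFSCs. The level in every plucked sample lay above that in every unplucked one, and the aged samples were the lowest of their kind on both sides. Ccnb1, the cyclin B1 gene that drives entry into mitosis (probe at mm9 chr13:101551224-101551283), had the largest difference of all RefSeq genes measured on both aged arrays. It stood at 2.68 in plucked and -3.02 in unplucked aged HFSCs, a 52.2-fold difference, and its 3 probes ranged from 2.93 to 5.71. Birc5 (survivin, of the chromosomal passenger complex) was 40.7-fold higher, at 5.13 in plucked and -0.22 in unplucked cells.

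For 12 further mitosis genes the unplucked aged array gave no signal above background, so the fold is a bound. Kif11, the bipolar spindle kinesin whose promoter is printed above, stood at 1.67 in plucked aged HFSCs and was not well above background in unplucked ones, at least 42.5-fold higher. Spc24 of the kinetochore was at least 40.8-fold higher. Kif11 reached 0.48 in unplucked control and -1.13 in unplucked cKO HFSCs and was dim in unplucked young HFSCs, so the unplucked samples were spread far more than the plucked ones, which stood between 1.67 and 2.27. Ccnb2, cyclin B2, stood at 1.44 in plucked aged HFSCs and was dim in unplucked aged HFSCs, where the young, control and cKO pairs had 1.79 against -2.55, 1.83 against -3.43 and 1.43 against -0.82. The transcription factors of the late cell cycle were higher as well, Foxm1 by 2.97 and Mybl2 by 2.43. Cdk1, the kinase that cyclin B activates, differed by 1.15 at the probe used and by up to 4.02 at its other probes. Plk1 (0.48) and Mad2l1 (0.73) stayed under 2-fold. Pttg1, securin, which holds back the separation of sister chromatids, went against the rest with 1.98 in plucked and 3.47 in unplucked aged HFSCs, and its difference was below 0 in the other 3 pairs too (-0.89 in young, -0.40 in control and -1.72 in cKO HFSCs).

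**Figure D2:**
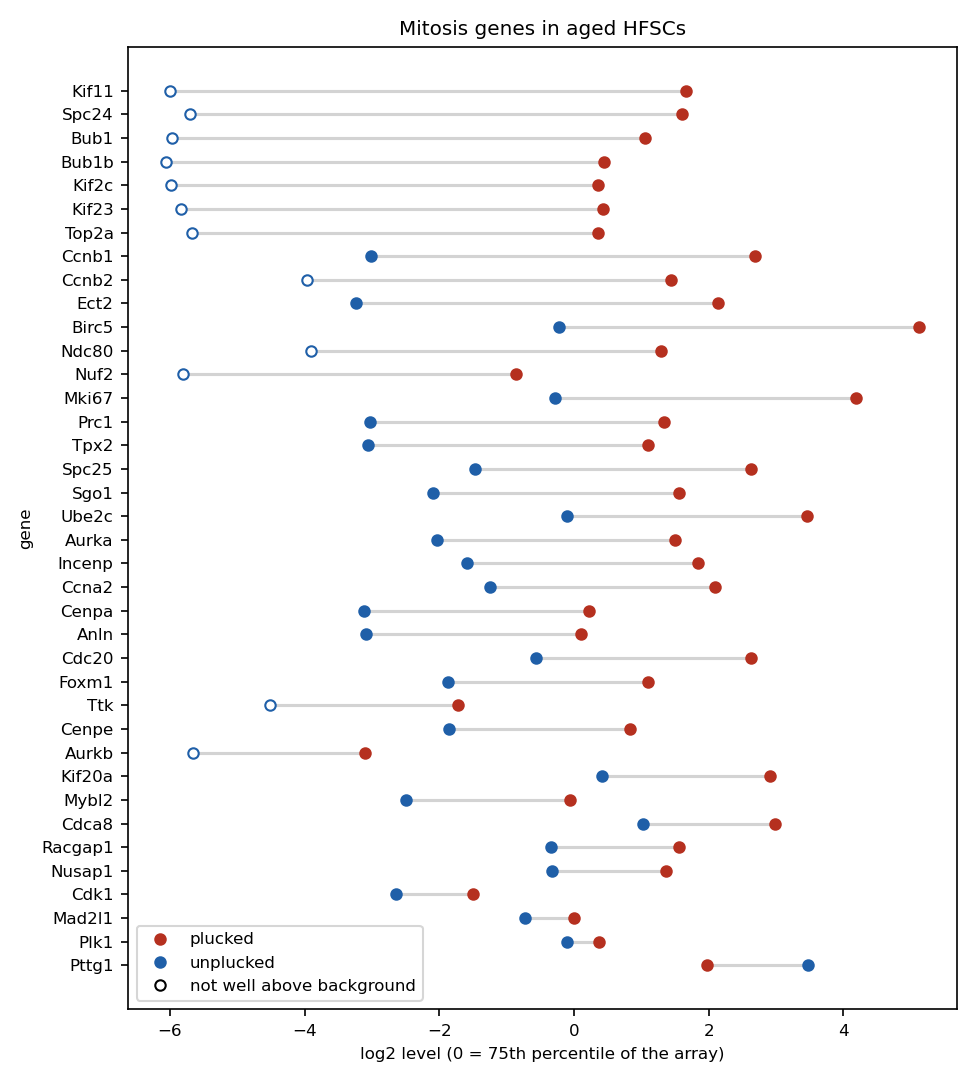
Log2 level (x axis, 0 is the 75th percentile of the array) of the 38 measured mitosis genes (y axis) in plucked (red) and unplucked (blue) aged HFSCs, 1 array each, ordered by their difference, with open points where a gene was not well above background. The plucked point lies to the right for every gene but Pttg1.

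DNA replication genes were higher in plucked aged HFSCs for 25 of 29 measured members, none was lower, and the median difference was 1.78. These genes had medians of 2.51 in young, 2.5 in control and 2.01 in cKO HFSCs, so the aged median was the lowest. In the order of their roles, Orc1 of the origin recognition complex stood at -0.22 in plucked aged HFSCs and was dim in unplucked ones, at least 11.5-fold higher. It was dim on every unplucked HFSC array and stood at -0.20 in young, 0.60 in control and 0.19 in cKO plucked HFSCs, so the plucked and unplucked samples did not overlap. Cdt1, which loads the helicase onto origins, was higher by 2.96, and Gmnn (geminin), which inhibits Cdt1, by 3.43. The 6 subunits of the MCM helicase differed by 1.25 (Mcm2) to 2.45 (Mcm3), and Mcm7 stood at 5.02 in plucked and 2.90 in unplucked cells. Gins2, which joins the helicase as it fires, was higher by 4.55, and Pcna, the sliding clamp of the polymerase, by 1.15. The enzymes that make nucleotides were spread: Rrm1 was higher by 2.46, whereas Rrm2 (0.82), Tk1 (0.27) and Tyms (-0.22) were within 2-fold at the probes used.

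Of the 28 measured genes of homologous recombination and the checkpoint, 16 were higher and 3 were lower in plucked aged HFSCs, with a median difference of 1.67. The medians of this list were 2.05 in young, 2.44 in control and 1.17 in cKO HFSCs. Brip1, a helicase partner of BRCA1, was at least 60.4-fold higher and the largest bound of the list. Brca1 and Clspn were at least 3.75-fold and 3.76-fold higher, and Fanci was higher by 3.08 at the probe used and differed by -0.86 at the other. The members that were lower were Fancd2 (-1.98 in unplucked and below background in plucked aged cells), Rad54l (-1.07) and the checkpoint kinase gene Chek1 (-1.01). All 3 were within 2-fold with normexp and quantile normalization, with the same sign. Fancd2 was dim on both young arrays and on the unplucked cKO array and differed by -0.34 in control HFSCs. Chek1 differed by 0.09, 1.94 and 1.72 in young, control and cKO HFSCs.

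Upstream of division, 8 of 19 measured genes of G1 cyclins, E2F and pocket proteins were higher and 1 was lower. E2f1 differed by 3.15, E2f2 by 2.40 and E2f8, a repressor among E2F factors, was at least 11-fold higher. Mycn stood at 5.33 in plucked and 2.62 in unplucked aged HFSCs, a difference of 2.71, and the other pairs gave 2.62 in young, 2.85 in control and 2.63 in cKO HFSCs. Myc itself differed by -0.35 and Ccnd1 (cyclin D1) by 0.82. Among the inhibitors of cyclin-dependent kinases, Cdkn2c was higher by 1.68 and Cdkn2b by 1.39, and 2 were lower. Cdkn1c (p57), which marks quiescent HFSCs in mouse, stood at -1.98 in unplucked and was below background in plucked aged HFSCs, at least 3.35-fold lower. Cdkn1b (p27) stood at 2.16 in plucked and 3.63 in unplucked aged HFSCs at the probe used, while its other probe differed by -0.004. Its differences in the other pairs were 0.05 in young, -0.60 in control and -1.20 in cKO HFSCs.

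Of 18 measured transcription factors of the bulge, 3 were higher and 2 lower, and the median difference was -0.23. The 13 within 2-fold are near the share over all genes, 16484 of 24423. Lhx2 differed by -0.15, Tbx1 by -0.16, Sox9 by -0.29 and Nfatc1 by -0.39, all within 2-fold in the aged pair and in the other 3 pairs. Foxc1, a forkhead factor that keeps activated mouse HFSCs quiescent, stood at 0.00 in plucked and 2.77 in unplucked aged HFSCs, a 6.83-fold difference. The other samples had 0.82 in plucked and 1.69 in unplucked young, 0.62 and 1.14 in control, and 0.30 and 1.65 in cKO HFSCs, so the aged samples held both the highest and the lowest Foxc1 level. Foxi3, a forkhead factor of placodes and the hair germ, was at least 59.8-fold higher, at 2.16 in plucked aged HFSCs and dim in unplucked ones. Sox4 was higher by 2.52, Id4 by 1.33, and Nfib was lower by 1.04 at the probe used while 2 of its 5 probes lay above 0.

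Genes of the bulge surface and secreted niche factors were lower for 7 of 27 measured members and higher for 2 in the aged pair, with a median difference of -0.54. The same 27 genes were all measured in the other pairs, where 14 were lower in young, 13 in control and 14 in cKO HFSCs, with medians of -1.03, -0.98 and -1.01. In the aged pair the difference lay above all 3 others for 13 of the 27 (48.1%, against 25.3% of 24419 genes) and below all 3 for 4 (14.8%, against 26.1%). These shares are a description, since the list was known from earlier results to respond. They did not set this list apart, as other lists had shares as large in either direction. Hemidesmosome and basement membrane genes lay above all 3 others for 12 of 22 (54.5%) and EGF receptor family genes for 6 of 11 (54.5%). Bulge transcription factors lay below all 3 for 10 of 18 (55.6%) and homologous recombination and checkpoint genes for 13 of 28 (46.4%).

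**Figure D3:**
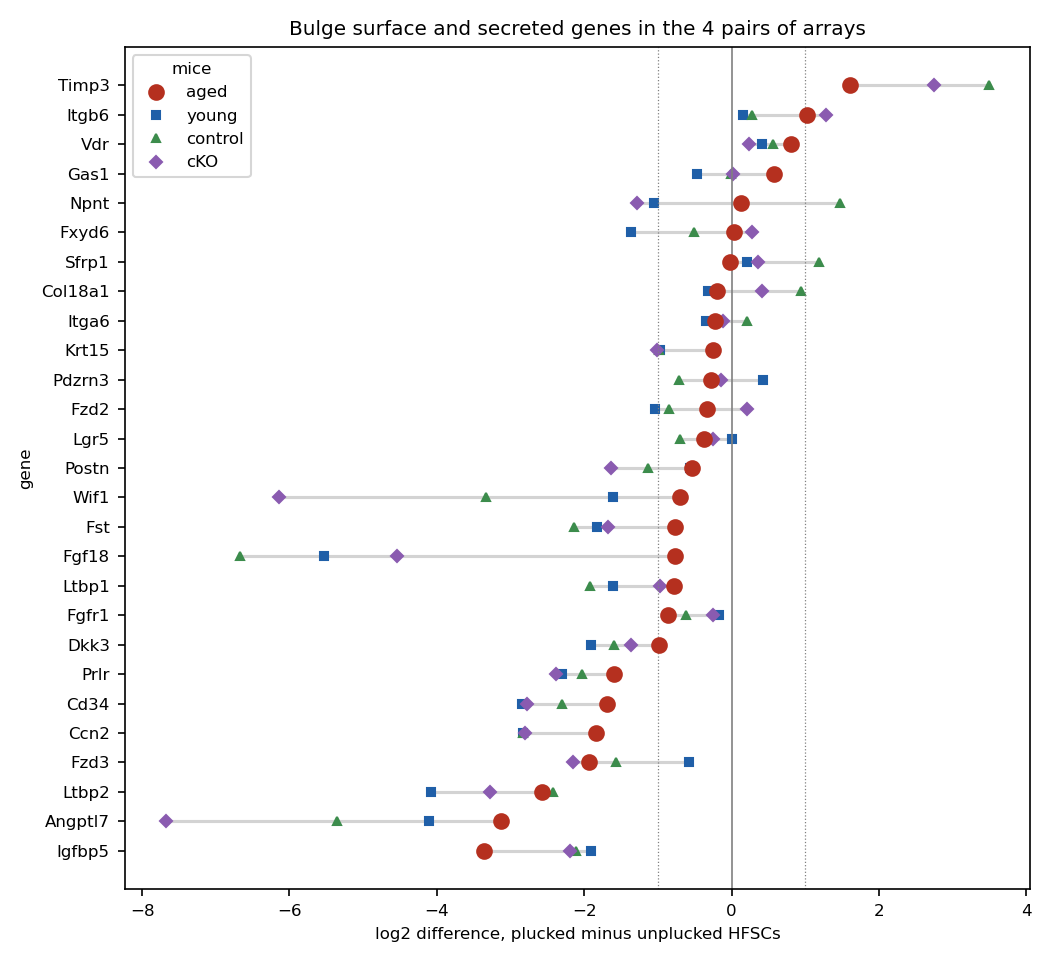
Log2 difference (plucked minus unplucked, x axis) of the 27 bulge surface and secreted genes (y axis) in aged (large red circles), young (squares), control (triangles) and cKO (diamonds) HFSCs, 1 pair of arrays each, with grey lines over their range and dotted lines at 2-fold. Fgf18 is at -0.77 in aged HFSCs and at -5.53, -6.67 and -4.54 in young, control and cKO HFSCs.

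Fgf18, the quiescence factor of the bulge (probe at mm9 chr11:33017440-33017499), had the widest gap of these genes between the aged pair and the others. It stood at 0.49 in plucked and 1.26 in unplucked aged HFSCs, and its other probe differed by -0.53. It stood at -2.65 in plucked and 2.88 in unplucked young HFSCs, at -4.19 and 2.48 in control and at -1.70 and 2.84 in cKO HFSCs. The plucked aged level was thus the highest of the 4 plucked samples and the unplucked aged level the lowest of the 4 unplucked ones. Limma's moderated test of the aged response against the mean of the other 3 gave 4.81 ± 1.02 (SE, 2 residual degrees of freedom) for Fgf18, with an unadjusted p of 0.00862 and an adjusted p of 0.999. Of 518 tested members of all 25 lists, 22 (4.25%) had an unadjusted p under 0.05, against 4.45% of all genes tested, so such a p was no more frequent among them.

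Cd34, a surface marker used in the sort, was 3.23-fold lower in the plucked aged sample, with both of its probes at -1.69 and -1.67, and the other pairs differed by -2.84, -2.30 and -2.78. Since the gate took cells high for CD34 in every sample, the transcript was compared within a gate on its protein. Krt15, a bulge keratin, stood at 5.93 in plucked and 6.18 in unplucked aged HFSCs. It stood at 5.84 in plucked and 6.81 in unplucked young HFSCs, at 5.99 and 6.97 in control and at 5.80 and 6.81 in cKO HFSCs. The 4 plucked samples lay close together, and the aged unplucked sample was the lowest of the unplucked ones. Wif1, a secreted Wnt inhibitor, stood at -0.78 in plucked and -0.08 in unplucked aged HFSCs (-0.70) and differed by -1.61 in young and -3.33 in control HFSCs, and it was dim in plucked cKO HFSCs against 1.63 in unplucked ones.

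Other secreted genes of the bulge were lower in all 4 pairs. Angptl7 stood at 1.17 in plucked and 4.30 in unplucked aged HFSCs, 8.79-fold lower, with differences of -4.10, -5.36 and -7.68 in young, control and cKO HFSCs. Igfbp5, which binds insulin-like growth factors, was 10.3-fold lower in the aged pair, at -1.23 in plucked and 2.14 in unplucked cells, and differed by -1.91, -2.11 and -2.20 elsewhere. Ltbp2, a latent TGF-beta binding protein, was lower by 2.58 and Ccn2 (CTGF) by 1.83. Prlr, the prolactin receptor, stood at 2.20 in plucked and 3.80 in unplucked aged HFSCs. Timp3, a metalloprotease inhibitor, was higher by 1.61, and by 1.63, 3.50 and 2.75 in young, control and cKO HFSCs.

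**Figure D4:**
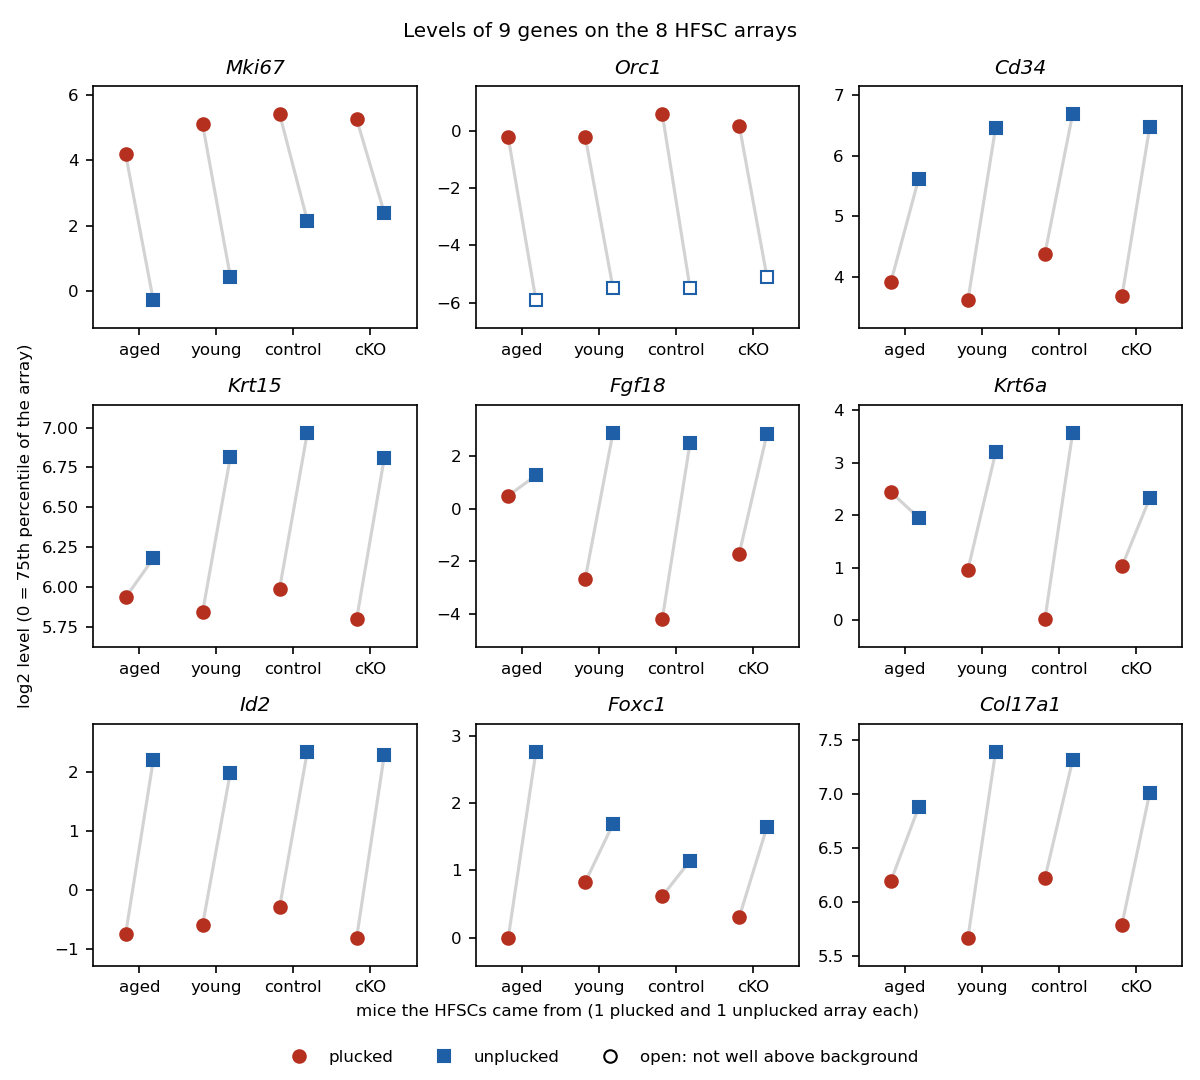
Log2 level (y axis, 0 is the 75th percentile of the array) of 9 genes on the 8 HFSC arrays, with plucked samples as red circles and unplucked samples as blue squares for aged, young, control and cKO mice (x axis), 1 array each and open symbols where the gene was not well above background. Mki67 is higher and Id2 lower in the plucked sample of all 4 pairs, while the aged samples lie closer together than the others for Fgf18 and Krt15 and further apart for Foxc1.

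BMP pathway genes had the lowest median of the 25 lists in the aged pair: 9 of 20 measured members were lower, 2 were higher and the median difference was -0.88. Several targets of BMP signalling were among the lower members. Id2, an inhibitor of differentiation, stood at -0.75 in plucked and 2.20 in unplucked aged HFSCs, a 7.71-fold difference. It stood at -0.59 and 1.98 in plucked and unplucked young HFSCs, at -0.29 and 2.34 in control and at -0.81 and 2.29 in cKO HFSCs, so the plucked and unplucked samples did not overlap and both aged levels lay within the range of the others. Id1 was lower by 1.94, Id3 by 1.55 and the inhibitory Smad7 by 2.06, and Smad9 was at least 6.87-fold lower. Id4, of the same family as Id1 and also in the list of bulge transcription factors, went the other way and was higher by 1.33. Among ligands, Bmp2 was lower by 2.20, and Bmp4 (-0.01) and Bmp6 (0.66) were within 2-fold. The secreted antagonists Nog (-2.02), Nbl1 (-1.75) and Grem1 (-1.25) were lower too, so these inhibitors and the lower targets named differed in the same direction. The receptor gene Bmpr1a differed by -0.02. In the other pairs, 11 of 20 members were lower in young, 12 of 20 in control and 10 of 19 in cKO HFSCs.

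Wnt pathway genes showed no common direction in the aged pair: of 39 measured members, 9 were higher (8 at the bounds) and 7 lower, with a median of -0.12. Wnt10a, a ligand made at the onset of hair growth, stood at 1.51 in plucked and -0.56 in unplucked aged HFSCs, while the difference was -1.16 in young, 0.23 in control and -0.92 in cKO HFSCs. Lef1, a transcription factor that acts with beta-catenin, stood at -1.93 in plucked aged HFSCs and was dim in unplucked ones, at least 3.53-fold higher, while it differed by -2.73 in young HFSCs, was dim in plucked control HFSCs against -2.48 in unplucked ones, and was dim on both cKO arrays. Axin2, a target of the pathway, differed by -0.90 at the probe used and by 0.56 at its other probe. The receptors Fzd9 (at least 17.8-fold lower) and Fzd3 (-1.93) were lower. Of 13 hedgehog genes, 3 were higher and 3 lower, against 15.7% higher and 16.8% lower over all genes, so the list had no common direction. The hedgehog targets Ptch1, which stood at 1.97 in plucked and -0.50 in unplucked aged HFSCs, and Gli1, at 2.83 and 1.81, were higher in plucked cells, and the co-receptor Cdon was lower by 1.82 at the probe used and differed by 0.05 at the other. With normexp and quantile normalization Gli1 was within 2-fold.

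Of 13 measured fibroblast growth factors, receptors and targets, none was higher and 4 were lower, among them Spry1 (-2.07), a feedback inhibitor, Fgfr3 (-1.33) and Fgf1 (-1.10). The 3 probes of Fgfr3 ranged from -1.68 to 0.63 and the other probe of Fgf1 differed by -0.35, and both genes were within 2-fold by the mean over probes. Of 11 genes of the EGF receptor family, 5 were higher (4 at the bounds) and 2 lower. Lrig1, an inhibitor of EGF receptors that marks the upper follicle, was higher by 1.75, and by 1.51, 1.39 and 1.30 in young, control and cKO HFSCs. Epgn (epigen, a ligand) was at least 6.31-fold higher, and Erbb4 at least 15.3-fold lower. The Erbb4 probe used was well above background in unplucked aged HFSCs and on no other HFSC array. Of 24 TGF-beta and activin genes, 4 were higher (3 at the bounds) and 4 lower, near the shares over all genes, 15.7% and 16.8%. Those lower were Ccn1, Ccn2, Smad7 and Ltbp2, of which Smad7 is also in the BMP list.

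Among hemidesmosome and basement membrane genes, 4 of 22 were higher and 1 was lower, with a median of 0.16. Over all genes 15.7% were higher and 16.8% lower. Col17a1 (probe at mm9 chr19:47720894-47720953) stood at 6.19 in plucked and 6.87 in unplucked aged HFSCs, a 1.60-fold difference. It stood at 5.67 in plucked and 7.39 in unplucked young HFSCs and at 6.22 and 7.31 in control HFSCs. In cKO HFSCs it stood at 5.79 in the plucked sample, a difference of -1.22 from the unplucked one. Which part of the gene is deleted in the cKO is not given in the labels, so this probe does not check that label. Every plucked sample was below every unplucked one, and the aged unplucked sample was the lowest of the unplucked ones. Its partners in the hemidesmosome, Itgb4 (-0.64), Dst (-0.71) and Plec (-1.15), differed in the same direction and Itga6 by -0.23. The members that were higher were Lamb1 (2.77), Fras1 (2.17), Col4a1 (2.04) and Itga3 (1.67), of laminin, the Fraser complex, collagen IV and the laminin receptor alpha 3 beta 1. Itga3 stood at 0.86 in plucked and -0.81 in unplucked aged HFSCs, while the difference was -0.40 in young, -2.19 in control and -1.19 in cKO HFSCs.

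Of 23 collagen chains, 6 were higher (5 at the bounds) and 6 lower. Col27a1 stood at 1.17 in plucked and -3.14 in unplucked aged HFSCs, a difference of 4.31. It stood at 1.87, 1.25 and 1.06 in plucked young, control and cKO HFSCs and was dim in the unplucked ones. Col5a2 was at least 8.30-fold lower, and Col8a2 was lower by 2.56 at the probe used while its other probe differed by 1.01. Among 19 proteases and inhibitors, 8 were higher (7 at the bounds) and 4 lower. Elane, which encodes neutrophil elastase, was dim in plucked aged HFSCs, at -3.59, and detected in unplucked ones, at -2.77. Plau (urokinase) was higher by 2.08 and Adamts1 by 1.93, and Timp2 was lower by 1.83 and Serpina3n by 1.85.

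Krt6a and Krt6b, keratins of the outer root sheath and of wounded skin, differed in the opposite direction in the other 3 pairs. Krt6a stood at 2.44 in plucked and 1.95 in unplucked aged HFSCs. It stood at 0.96 in plucked and 3.20 in unplucked young HFSCs, at 0.02 and 3.57 in control and at 1.02 and 2.32 in cKO HFSCs, so the plucked aged sample was the highest of the plucked ones and the unplucked aged sample the lowest of the unplucked ones. Krt6b followed the same order, at 4.74 in plucked and 4.22 in unplucked aged HFSCs against differences of -1.55, -1.83 and -0.93 in young, control and cKO HFSCs, and its other probe was higher by 2.37 in the aged pair. Krt17 was higher in all 4 pairs, by 1.58 in aged and by 1.06, 1.22 and 1.30 in young, control and cKO HFSCs. Of 28 genes of epidermal differentiation and wound keratins, 6 were higher and 2 lower, the higher ones being Flg (2.71), Krt16 (2.20), Krt17, Sprr1b (1.57), Krt1 (1.53) and S100a9 (at least 7.76-fold), which is also in the neutrophil list. The Krt16 differences in the other pairs were -1.83 in young and 1.64 in control HFSCs, and it was dim in unplucked cKO HFSCs, so the aged value was not set apart. Beside these stands the sum of the interfollicular markers given above, which was also larger on the plucked array and of which Krt1 is 1 member; its part in the result was not tested. Among 22 hair germ and hair lineage genes, 6 were higher and 4 lower. Krt27, an inner root sheath keratin, was at least 17.5-fold higher, Hoxc13 was higher by 1.07 and Msx2 was lower by 1.79.

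Genes of growth and metabolism are set beside all genes measured in the aged pair, of which 15.7% were higher and 16.8% lower. Ribosome biogenesis had 15 of 28 members higher and none lower, with a median of 1.03, against 7, 8 and 10 of 28 higher and medians of 0.46, 0.38 and 0.72 in young, control and cKO HFSCs. Npm1 (nucleophosmin) stood at 6.80 in plucked and 5.77 in unplucked aged HFSCs and Ncl (nucleolin) at 5.94 and 4.84. Of 20 genes of cholesterol synthesis, 7 were higher and none lower, with a median difference of 0.78. Of 19 glycolysis genes, 5 were higher, namely Pgk1, Gapdh, Pkm, Pgam1 and Eno1 (1.22 to 2.08). The 1 lower gene was Pfkfb3, a regulator of glycolysis, at 0.21 in plucked and 2.28 in unplucked aged HFSCs at the probe used, while its other probe differed by 0.24. Of 23 genes of the unfolded protein response and chaperones, 5 were higher, led by Manf (1.88), and 1 was lower. The glycolysis list had a median of 0.14 and the chaperone list a median of 0.53, against -0.07 over all genes.

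The lists of stress and immune genes had medians between -0.13 and -0.04. Their counts stand against 15.7% higher and 16.8% lower over all genes. Of 20 p53 targets, 4 were higher and 3 lower. Gadd45a stood at 2.14 in plucked and 0.90 in unplucked aged HFSCs and Bbc3 (Puma) at 1.58 and 0.35, while Cdkn1a (p21) differed by 0.51 at the probe used and by -0.74 to 3.26 over its probes. Of 19 AP-1 and EGR genes, 4 were higher and 4 lower. Egr2 was higher by 2.03, and Maff, a small MAF factor, was lower by 3.87, and by 3.34 in young HFSCs, and was dim in plucked control and cKO HFSCs. Of 20 interferon response genes, 2 were higher and 4 lower (2 at the bounds). H2-K1, a class I histocompatibility gene, stood at 5.67 in plucked and 5.65 in unplucked aged HFSCs, where the other pairs differed by -0.96, -1.10 and -1.10.

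The named genes with the largest differences on both aged arrays, some of them list members described above, fell into a few kinds. Of the 15 highest, Ccnb1, Ect2, Birc5, Timeless, Diaph3 and Cdca3 act in the cell cycle, cytokinesis or DNA replication. H2bc14, H2ac4 and H2bc1 are clustered histone genes, and 30 of 36 measured genes of that kind were higher, with a median of 3.12. Their near-identical sequences can share probes' signal, so single histone genes are uncertain, and this family was counted after its values were seen. Further ones were Pla2g7, a secreted lipase (1.93 in plucked and -3.53 in unplucked aged HFSCs), Nrp2, a receptor of semaphorins and VEGF (4.87), Mex3a, an RNA-binding protein (4.75), Serpinf1 (PEDF, 4.99) and Hdac8 (5.27). Pla2g7 stood at 1.73, 0.98 and 1.37 in plucked young, control and cKO HFSCs and was dim in the unplucked ones. The second probes of Serpinf1 and Hdac8 differed by 1.33 and 0.63. The largest bound belonged to Gjb2, the gap junction protein connexin 26, at least 78.8-fold higher, followed by Cenph, Brip1, Foxi3, Ckap2, Kif11, Lockd and Spc24 (at least 40.8-fold to 66.4-fold). Gjb2 stood at 1.22 in plucked and 0.72 in unplucked young HFSCs, and at 1.22 in plucked control and 2.36 in plucked cKO HFSCs with the unplucked ones dim.

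The 15 largest differences in the other direction varied in how the genes stood elsewhere. Aspn (asporin), Camk2n1, Maff and Adra2a (an adrenergic receptor) were at least 8-fold lower in all 4 pairs: Adra2a stood at 0.24 in plucked and 3.88 in unplucked aged HFSCs and differed by -4.40, -4.21 and -4.29 in young, control and cKO HFSCs. Others, such as Olfr700, Galr3 and Clec2l, had a raised level on the unplucked aged array alone. Olfr700, an olfactory receptor gene, stood at -2.93 in plucked and 2.11 in unplucked aged HFSCs, and elsewhere in HFSCs ranged from -3.14 to -2.10. Clec2l stood at -2.91 in plucked and 1.56 in unplucked aged HFSCs, and elsewhere in HFSCs ranged from -3.34 to -2.90. The rest were Ccdc126, Rab17, Pknox2, Alg6, Speer5-ps1, Srrm4, Prl3a1 and Kif5c, with differences of -4.78 to -3.56; a second probe of Alg6 differed by 0.50. The 8 largest bounds in this direction were likewise bright on the unplucked aged array: Zfp428 stood at 3.00 there and was at least 106-fold lower in plucked aged HFSCs, and Cd274 (PD-L1), Daam2, Cd209g, Vmn2r96, Apob, Gm9376 and Mup19 were at least 38.4-fold to 92.5-fold lower. Of the 4115 lower genes, 466 (11.3%) were well above background on the unplucked aged array and on no other HFSC array. Of the 3824 higher genes, 216 (5.6%) were so on the plucked aged array. Over all genes, 518 were above background on the unplucked aged array alone and 230 on the plucked aged array alone. Each of the other HFSC arrays had 217 to 604 such genes. The aged arrays themselves entered the choice of the higher and lower genes, so the 2 shares are a description. The unplucked aged level was the highest of the 4 unplucked levels for 60.5% of the lower genes and for 27.2% of all genes measured. For the higher genes it was the lowest of the 4 in 37.5%, against 19.5% of all genes. The plucked aged level was the highest of the 4 plucked levels for 48.1% of the higher genes and for 31.3% of all genes. Both aged arrays entered the choice of these genes. The differences of genes bright on the unplucked aged array alone rest on that 1 array, and what raised the signal on it was not tested.

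The aged pair shares no array with the others, so its differences could be set beside theirs. The control and cKO pairs were on another slide than the aged and young pairs. At least 2-fold higher genes made up 15% of 23884 measured in young, 21.1% of 25417 in control and 22.4% of 24005 in cKO HFSCs, and lower genes 11%, 20.2% and 17.1%. Of the 3824 genes higher in aged HFSCs, 31.3% were higher in young HFSCs (33.5% of the young list), 42.3% in control (30.2% of its list) and 40.7% in cKO HFSCs (29.0% of its list), and 582 were higher in all 4 pairs. Of the 4115 lower genes, 19.1% were lower in young (29.7% of that list), 30.5% in control (24.4%) and 23.5% in cKO HFSCs (23.6%), and 263 were lower in all 4. Of the higher genes 36.1% and of the lower genes 51.3% passed 2-fold in that direction in none of the other 3 pairs. Across the 16585 genes well above background on all 8 arrays, the differences of the aged pair correlated with those of the young pair with r = 0.412, of the control pair with r = 0.394 and of the cKO pair with r = 0.337. The other 3 pairs correlated among themselves with r between 0.342 and 0.434. These are correlations across genes, which are not independent replicates.

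**Figure D5:**
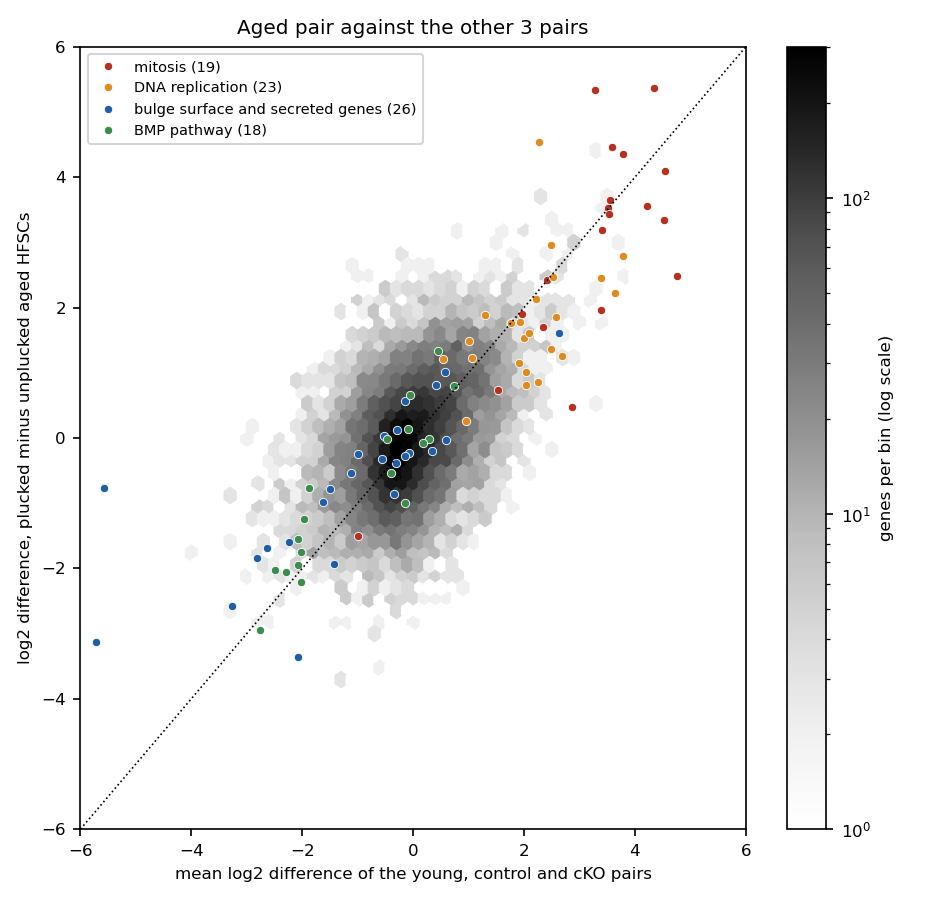
Log2 difference of the aged pair (y axis) against the mean log2 difference of the young, control and cKO pairs (x axis) for the 16585 genes well above background on all 8 HFSC arrays, as grey bins shaded by number of genes on a log scale, with members of 4 lists in colour and the dotted line of equal values. Mitosis and DNA replication genes lie mostly to the upper right; many BMP and bulge surface genes lie to the lower left and the others near the origin.

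Whether the aged response differed from the mean response of the other 3 pairs was tested over the 8 HFSC arrays with limma, with mouse type, plucking and their interaction in aged mice as terms. This test takes its spread from the other 3 pairs with 2 residual degrees of freedom. Those pairs differ in age, tamoxifen or Col17a1 genotype, so differences between their responses count as spread. The aged pair is assumed to vary like them. None of 25417 genes passed an adjusted p of 0.05 in either direction (0% higher and 0% lower). At an unadjusted p under 0.05 there were 1131 genes, 4.45% of those tested, and the smallest adjusted p was 0.999. In simulated data of the same size, the fit recovered 0 of 60 genes with an added log2 difference of 3, 13 of 60 at 6 and 72 of 80 at 12. Most added differences of 6 or less were therefore missed, and the absence of calls does not show that the responses were alike. The simulated noise was normal with no detection floor, so these rates need not hold for genes dim on some arrays.

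Of the 8 genes with the smallest p in each direction, 5 in each carry a symbol and 3 in each do not. Hrh2, AU022434, C230085N15Rik and A130082J08Rik were not matched to RefSeq and are called by the name in the array design alone. The probe named Hrh2 stood at 1.46 in plucked and -3.25 in unplucked aged HFSCs and was below background on the other 6 HFSC arrays, a difference in response of 6.18 ± 0.61 (SE, adjusted p = 0.999, limma). Kcnq1, a potassium channel, gave 5.49 ± 0.63 (adjusted p = 0.999, limma) and was followed by AU022434, Trim7 and Nek3. All 4 were dim in unplucked aged HFSCs, and Kcnq1 was dim also on 5 of the other 6 HFSC arrays, so these estimates rest in part on levels below the detection floor and are no measured sizes. At its bound Kcnq1 was at least 5.00-fold higher in plucked aged HFSCs. In the other direction Zfp428, dim in plucked aged HFSCs, gave -8.52 ± 0.68 (adjusted p = 0.999, limma), followed among genes with symbols by C230085N15Rik (-4.56), Slc22a23 (-6.17), A130082J08Rik (-5.01) and Clec2l (-4.57). Of the list members described above, Fgf18, Pfkfb3, Fancd2, Lef1, S100a9, Gins2, Plk1, Wnt10a, Itga3, Krt6b, Foxc1 and E2f2 had an unadjusted p under 0.05, at the frequency over all genes given above.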

How the data were processed

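RNA of 12 sorted or dissected mouse skin samples was measured on 1-colour Agilent arrays, 1 array a sample. Per the file headers, the deposited scanner files hold spot intensities from Agilent Feature Extraction 10.7.3.1, background-subtracted and detrended within each array, with probe coordinates on mm9. The deposited value table holds log2 values, which a comparison with the scanner files showed to be relative to the array's 75th percentile and to the probe's median over the 12 arrays; direction and scale match the scanner values. Other deposited columns are flags of the scanner software per the file headers.

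Control and outlier spots were left out (129 to 269 outlier spots an array; 0 saturated), processed intensities were put on the log2 scale and centred on each array's 75th percentile, and spots of a probe were averaged. Of 55681 probes, 28361 were matched to RefSeq by accession; others kept the file's name. The probe with the highest mean level stood for a gene. Genes named are the 15 highest and 15 lowest differences on both aged arrays, the 8 largest bounds each way, the 8 smallest p each way and members of the gene lists; a few genes that this rule names are not reported here. The members and lists were chosen with earlier results of these data known. Limma 3.58.1 in R 4.3.3 tested the aged response against the others on genes well above background on at least 2 of 8 HFSC arrays, with Benjamini-Hochberg adjustment over all of them, and was tested on simulated data. Nothing in the labels says that samples came from separate mice, so the p-values do not measure a spread between mice. They rest on the spread of the plucking response among the young, control and cKO pairs, which are unlike conditions and not replicates. Alternatives were normexp (offset 50) with quantile normalization, the value table, median scaling, the mean over probes, other filters on dim genes, 4-fold, leaving out a pair, and a slide term.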

Additional observations from a re-analysis of the deposited data

How the results depend on the processing

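The counts of 3824 higher and 4115 lower genes moved most with the background correction and the threshold: normexp with quantile normalization gave 1740 higher and 1689 lower, and 4-fold gave 1423 higher and 1597 lower. Requiring both arrays above background gave 2551 higher and 2335 lower genes. Lower genes thus outnumbered higher ones in the main setting and not with normexp or with both arrays required. Of the genes at least 2-fold apart, 48.2%, 50.7% and 52.2% were higher in these settings. Of 172 named genes at least 2-fold apart, 148 stayed so with normexp and 159 with the mean over probes, all 172 with the same sign. Among those within 2-fold with normexp were Cdk1, Mcm2, Brca1, Fancd2, Chek1, Rad54l, Cdkn1c, Cdkn2b, Lef1, Gli1, Fras1, Hoxc13, Npm1 and Ncl. Of 4 lists with a median of at least 1, homologous recombination and ribosome biogenesis were below it with normexp, and ribosome biogenesis also with the mean over probes. The cause was not tested. With the value table and median scaling all 172 genes and 4 lists stayed.

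The test of the aged response called 0 genes in either direction under every alternative run, 0 to 0 when a pair was left out, with 662 to 1859 genes at an unadjusted p under 0.05. Counts of lower bulge surface genes under 2 settings chosen after seeing the data were 8 and 7 of 27 in aged, 14 and 13 in young, 13 and 13 in control, and 14 and 15 in cKO HFSCs (normexp, then mean over probes). No paired analysis was possible because replicate number 1 is shared by all groups and so joins no particular samples. Mouse type is a term of the fit over 8 arrays, which therefore compares plucked with unplucked samples within each mouse type. A single array a side leaves the spread between mice unknown.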
